A study of Arabidopsis thaliana with 4 samples.

Results

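The chloroplast of a plant cell keeps a small genome of its own, and the genes described here are those of that genome in leaves of *Arabidopsis thaliana*. They were taken as every gene whose code begins with ATCG in any of the 4 deposited gene tables, which gave 77 of the 23049 genes listed. Where a table does not list a gene, it counts as 0 reads there. Of the 77, 70 stood in all 4 tables, and 64 passed a filter of a mean of at least 1 CPM (reads per M reads of the library) over the 4 libraries.

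Plastid genes encode core subunits of the photosynthetic complexes, the large subunit of Rubisco, part of the plastid ribosome and the core of a bacterial-type RNA polymerase, while the nucleus encodes the other subunits of these complexes. They are transcribed by this plastid-encoded polymerase together with nuclear sigma factors, and by phage-type polymerases made in the nucleus. Most lie in clusters that are read into one long transcript, which is then cut, trimmed, spliced and edited with the help of nuclear RNA-binding proteins. Plastid mRNAs carry no stable poly(A) tail, and a short tail marks them for decay.

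The study set the mutant line sme1-1 against the wild type of the same background, Col-0, in leaves of 2-week-old plants grown on soil in long days. SME1 encodes an Sm protein, a subunit of the ring around the RNAs of the nuclear spliceosome. The labels give 4 groups of 1 library each: sme1-1 exposed to 4 °C for 24 h, sme1-1 at 20 °C, Col-0 exposed to 4 °C for 24 h, and Col-0 at 20 °C. Light was 40 µmol m-2 s-1 in the cold and 90 µmol m-2 s-1 during growth, so light and temperature cannot be told apart. Total RNA was extracted and libraries were made with the maker's usual protocol; how RNA was selected is not given in the sources used here. The labels do not say what sme1-1 changes in the gene or how many plants gave each library. With 1 library per label no spread between replicates exists, so differences are given as folds with an exact 95% interval in parentheses, which covers counting error between 2 libraries only, and no p-value was computed.

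SME1 itself went against the labels. It had 43 reads (0.919 CPM) in the library labelled sme1-1 4 °C, 1252 reads (27.8 CPM) in that labelled sme1-1 20 °C, 32 reads (0.679 CPM) in that labelled Col-0 4 °C and 655 reads (14.7 CPM) in that labelled Col-0 20 °C. It was thus low in both libraries labelled 4 °C and high in both labelled 20 °C, whatever the genotype label, so every direction below is a direction between labels. Its close copy SME2 lay between 9.59 and 11.6 CPM. The libraries held 44.6 M to 47.2 M uniquely mapped reads. Leaf markers summed to 34778 CPM under the label sme1-1 4 °C, 35569 CPM under the label sme1-1 20 °C, 43287.5 CPM under the label Col-0 4 °C and 40849 CPM under the label Col-0 20 °C. RBCS1A held most of each sum, and the 4 leaf markers did not go one way. For sme1-1 over Col-0, log2 ratios at 4 °C and 20 °C were -0.32 and -0.16 for RBCS1A and -1.66 and -1.53 for RBCS2B. They were 0.59 and 0.14 for LHCB1.2 and 0.07 and 0.17 for LHCB2.1. The 3 root markers summed to 57.3 CPM under the label sme1-1 4 °C, 64.5 under sme1-1 20 °C, 120.4 under Col-0 4 °C and 127 under Col-0 20 °C, nearly all from SCR, with EXPA7 at 0 in each. COBL9 had 0 to 4 reads per library, so these sums follow SCR alone and do not measure root tissue. Flower and pollen markers summed to 0.333 to 0.740 CPM, with VGD1 at 0 in each, and seed markers to 0.0427 to 0.178 CPM. The part of these marker levels in the differences below was not tested.

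The gene tables hold codes and no names. Names here follow the usual code assignments of the Arabidopsis plastid genome, checked by length against the RefSeq annotation of TAIR10.1. For 56 of the 77 the counted length was exactly that of the RefSeq gene of that name. For the other 21 it was not, and these are given with their code where they are described. Among the 21, ATCG01130 (*ycf1*) was counted over 10249 bases against 5361 in RefSeq, and ATCG00905 (an entry of *rps12*) over 5146 against 372, so reads of neighbouring sequence can be in both. All 8 ribosomal RNA codes and 11 further codes on the list of 96 plastid genes stood in no table, among them *rps7* and *rpl2*. They were not analysed here. The tables count uniquely mapped reads, and all 7 plastid rRNA genes of RefSeq occur in 2 copies. The 3 listed genes whose coding exons all occur in 2 copies, ATCG00840 (*rpl23*), ATCG01250 (*ndhB*) and ATCG01280 (*ycf2*), had 0 to 10 reads per library.

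Neighbouring genes of the plastid can share bases, and a read over such bases can be given to either gene. The 3 overlaps between coding sequences on one strand follow, read from the RefSeq TAIR10.1 plastid sequence on the coding strand, 5′ to 3′, with the bases that belong to both genes in capitals. The first lies at Pltd:33708-33784 on the plus strand, the second at Pltd:52648-52675 and the third at Pltd:83455-83494, both on the minus strand.
psbD-psbC: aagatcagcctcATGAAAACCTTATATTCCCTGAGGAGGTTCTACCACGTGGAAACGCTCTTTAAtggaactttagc
atpB-atpE: taaattgaagaaATGAccttaaatcttt
rpl22-rps3: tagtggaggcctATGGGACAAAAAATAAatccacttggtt
The shared stretch is 53 bases for *psbD* and *psbC*, 4 bases for *atpB* and *atpE* and 16 bases for *rpl22* and *rps3*. In each, the capitals open with a start codon of the downstream gene and end at the end of the upstream one. The tables do not give the strand of a read, so *psbN*, which is encoded opposite to the *psbB* cluster, cannot be told from antisense RNA of that cluster.

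All plastid genes together took 1.31% of the reads (611264 reads) under the label sme1-1 4 °C and 1.1% (495051) under the label sme1-1 20 °C. They took 1.72% (809559) under the label Col-0 4 °C and 1.51% (674617) under the label Col-0 20 °C. At either temperature label the plastid share was lower under the label sme1-1 than under the label Col-0, 1.31-fold (1.31 to 1.32) at 4 °C and 1.37-fold (1.37 to 1.38) at 20 °C. It was 1.19-fold higher (1.18 to 1.19) at 4 °C than at 20 °C between the libraries labelled sme1-1 and 1.14-fold (1.13 to 1.14) between those labelled Col-0. In these bulk leaves, fewer plastids or cells and less plastid RNA per cell cannot be told apart. Mitochondrion-encoded genes took 0.0234% in the library labelled sme1-1 4 °C, 0.0403% in that labelled sme1-1 20 °C, 0.0401% in that labelled Col-0 4 °C and 0.0435% in that labelled Col-0 20 °C. Their share was 1.71-fold lower (1.67 to 1.76) under the label sme1-1 than under the label Col-0 at 4 °C, and 1.08-fold lower (1.06 to 1.1) at 20 °C.

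A few genes held most of these reads. *atpB* alone, the gene of the catalytic subunit of the ATP synthase, made up 25.1% of plastid reads in the library labelled sme1-1 4 °C, 31.4% in that labelled sme1-1 20 °C, 31.3% in that labelled Col-0 4 °C and 36.7% in that labelled Col-0 20 °C. The 5 most counted genes made up 64.7% to 71.3%. Per length, in the deposited RPKM (reads per kilobase of gene and per M reads), the highest means over the 4 libraries were those of *rpl16* (3877), *atpE* (3523), *atpB* (2948), *rps19* (1795) and *rps3* (1257). *psbA* (ATCG00020), which encodes the D1 protein of photosystem II, averaged 72.0 RPKM and *rbcL* 23.4 RPKM. Both are known as genes of very abundant leaf transcripts, and here they lay far below the ribosomal genes *rpl16*, *rps19* and *rps3*. Depth therefore differed widely between the members, and small genes such as *psbT*, *psbL* and *petL* had at most 17 reads in any library.

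**Figure D1:**
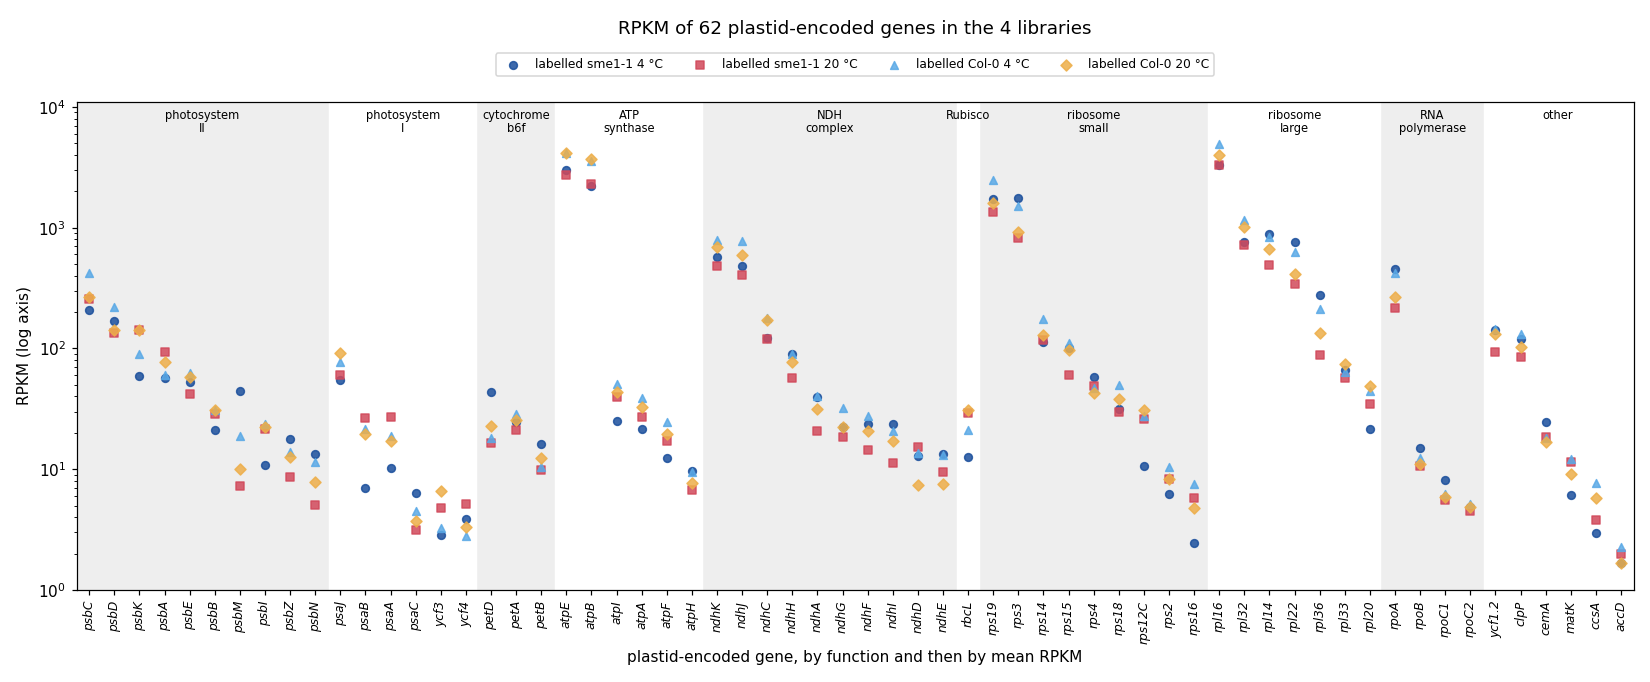
Deposited RPKM (log axis) of 62 of the 64 plastid genes that passed the filter, grouped by function and ordered by mean RPKM, with 1 point for each of the 4 libraries and no error bars because each label has 1 library. *rpl16*, *atpE*, *atpB*, *rps19* and *rps3* stand highest, and *rbcL* lies between 12.6 and 30.8 RPKM.

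Capture of poly(A) RNA is a common way to make such libraries, and A-rich stretches inside a transcript are known to be caught by it, so runs of A in the coding sequences were listed. Only the 70 members whose name has a single coding entry in RefSeq were used, which left out *ycf1* and *rps12* among others. Over these 70 the longest run of A had a median of 5 bases and ranged from 2 to 14, and 9 genes held a run of at least 9. Of these 9, 5 are shown on the coding strand, 5′ to 3′, with the run in capitals: the 3 longest, and *atpB* and *rps19* as genes with many reads.
rpoA: aacctaagAAAAAAAAAAAAAAcaaaagaa
rpoC2: gagtagagAAAAAAAAAAAAAggattgaac
accD: tttttgatAAAAAAAAAAAAAtttttgaga
atpB: tcgatacgtgAAAAAAAAAAcctgggacgt
rps19: cacgttcactAAAAAAAAAcccttttgtag
They lie at Pltd:78087-78116 (*rpoA*), Pltd:17917-17946 (*rpoC2*), Pltd:57364-57393 (*accD*), Pltd:54091-54120 (*atpB*) and Pltd:84250-84279 (*rps19*), on the plus strand for *accD* and on the minus strand for the others. Genes with long runs were found at both ends of the range: *rpoA* averaged 341 RPKM and *atpB* 2948, while *rpoC2* averaged 4.84 and *accD* 1.90. Across the 70 genes, which share libraries and are not replicates, Spearman's rho with mean RPKM was 0.12 for the longest run of A, 0.34 for the percent of A, 0.23 for the percent of G and C and 0.13 for the coding length. The part of RNA selection in these levels was not tested.

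Each of the 4 comparisons set one library against another, and a gene was counted as apart when the counts, scaled to the library total, differed by at least 2-fold. At 20 °C, 1 of the 64 genes was at least 2-fold higher under the label sme1-1 than under the label Col-0 and none was at least 2-fold lower, where 9.1% of all 17218 genes compared were higher and 7.13% lower. At 4 °C, 2 were higher and 8 lower under the label sme1-1, against 11.8% and 7.85% of all genes. Between the libraries labelled Col-0, none was higher and 1 lower at 4 °C than at 20 °C, against 0.865% and 0.871% of all genes. Between the libraries labelled sme1-1, 12 were higher and 6 lower at 4 °C than at 20 °C, against 3.26% and 2.56% of all genes. In these 30 cases the whole counting interval lay past 2-fold for 19. Of all genes, larger shares were 2-fold apart between genotype labels than between temperature labels, while SME1 divided by temperature label. Whether labels were exchanged between libraries was not tested, and no library was reassigned.

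The medians of the log2 ratios were small beside these single genes. They were -0.27 for the 64 genes and 0.03 for all genes in the library labelled sme1-1 over that labelled Col-0 at 20 °C, and -0.21 and 0.09 at 4 °C. For 4 °C over 20 °C they were 0.24 and -0.03 between the libraries labelled Col-0, and 0.23 and 0.03 between those labelled sme1-1. Below 0 were 53 of 64 genes in the comparison at 20 °C and 42 in that at 4 °C. Of all 17218 genes, 8303 lay below 0 at 20 °C and 7717 at 4 °C. For 4 °C over 20 °C, 52 of the 64 were above 0 under the label Col-0 and 40 under the label sme1-1. Among all 17218 genes, 7510 were above 0 in the former case and 9010 in the latter. The comparisons share libraries, so these counts do not stand independently of each other. Of the 64, 31 had their highest CPM under the label Col-0 4 °C and 37 their lowest under the label sme1-1 20 °C. This order was not counted over all genes, so it is not shown to be particular to plastid genes. Scaled to the plastid total in place of the library total, the medians of the 64 became 0.18 at 20 °C and 0.18 at 4 °C for sme1-1 over Col-0, and 0.05 (Col-0) and -0.01 (sme1-1) for 4 °C over 20 °C. That scaling moved the median of all genes by more than 0.1, to 0.49 for sme1-1 over Col-0 at each temperature label and to -0.22 for 4 °C over 20 °C under each genotype label. Under it 3 genes were higher and 0 lower at 20 °C for sme1-1 over Col-0, and 3 higher and 2 lower at 4 °C. For 4 °C over 20 °C it gave 0 higher and 1 lower between the libraries labelled Col-0, and 4 higher and 9 lower between those labelled sme1-1. Shares of all genes were not computed on this scale, and the shares given above do not apply to it.

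**Figure D2:**
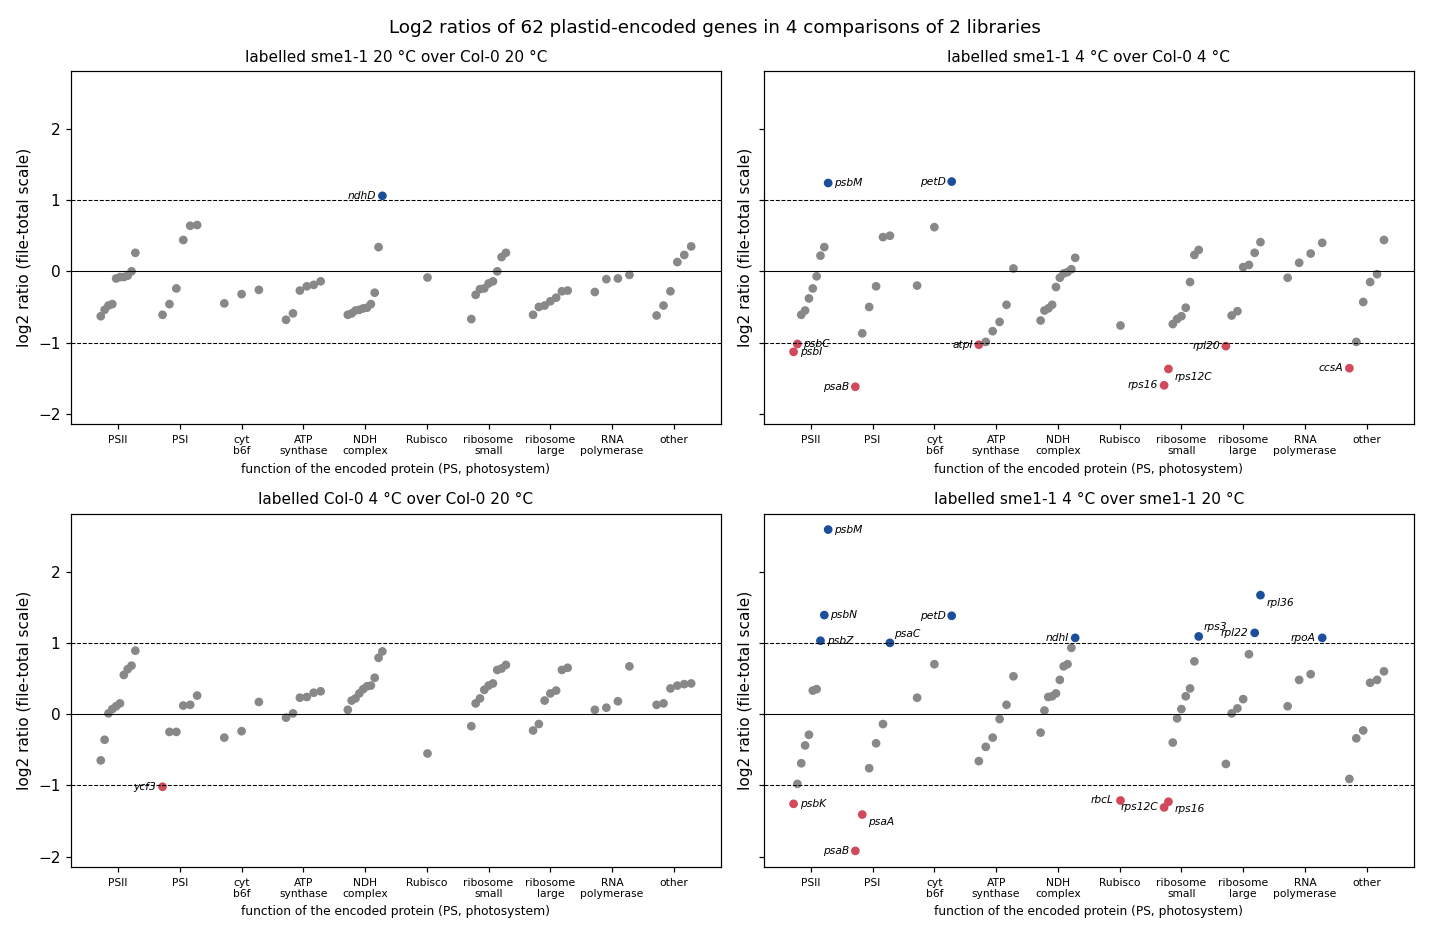
Log2 ratio of library-scaled counts of 62 of the 64 genes by function in the 4 comparisons of 2 libraries, where each point is a gene, the dashed lines mark 2-fold and named genes are at least 2-fold apart. The spread is widest between the libraries labelled sme1-1 4 °C and sme1-1 20 °C, where 10 of the genes drawn lie above and 6 below the lines.

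The reaction centre genes of photosystem I gave some of the largest differences. *psaA* and *psaB* encode the pair of proteins that carry its reaction centre pigments. *psaB* had 727 reads in the library labelled sme1-1 4 °C, 2646 in that labelled sme1-1 20 °C, 2252 in that labelled Col-0 4 °C and 1941 in that labelled Col-0 20 °C. It was 3.79-fold lower (3.49 to 4.12) under the label sme1-1 4 °C than under the label sme1-1 20 °C, and 3.07-fold lower (2.83 to 3.35) than under the label Col-0 4 °C. *psaA* had 1076 reads under the label sme1-1 4 °C, 2746 under sme1-1 20 °C, 1985 under Col-0 4 °C and 1730 under Col-0 20 °C. Its value in the library labelled sme1-1 4 °C was 2.66-fold lower (2.47 to 2.85) than under the label sme1-1 20 °C, and 1.83-fold lower (1.70 to 1.97) than under the label Col-0 4 °C. The library labelled sme1-1 4 °C was thus the low one for both genes, while the library labelled sme1-1 20 °C was the highest of the 4. Reads covered over 99% of both genes in every library.

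The other 4 measured genes of photosystem I differed less. *psaC*, whose product holds iron-sulphur centres, had few reads, 73 under the label sme1-1 4 °C, 35 under sme1-1 20 °C, 52 under Col-0 4 °C and 41 under Col-0 20 °C. It was 2.0-fold higher (1.32 to 3.09) under the label sme1-1 4 °C than under the label sme1-1 20 °C. *psaJ*, a small subunit and the highest of the group per length, lay between 54.4 and 91.8 RPKM with no difference of 2-fold. ATCG00360 (*ycf3*), an assembly factor, had 62 reads under the label sme1-1 4 °C, 101 under sme1-1 20 °C, 72 under Col-0 4 °C and 138 under Col-0 20 °C and was 2.03-fold lower (1.51 to 2.73) under the label Col-0 4 °C than under the label Col-0 20 °C. Another assembly factor gene, *ycf4*, was 1.56-fold apart (1.17 to 2.08) at 20 °C, with 5.17 RPKM under the label sme1-1 and 3.31 under the label Col-0. Summed over the group, photosystem I took 0.390% of plastid reads in the library labelled sme1-1 4 °C, 1.22% in that labelled sme1-1 20 °C, 0.609% in that labelled Col-0 4 °C and 0.666% in that labelled Col-0 20 °C.

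Photosystem II genes went different ways. *psbA* had 3045 reads in the library labelled sme1-1 4 °C, 4736 in that labelled sme1-1 20 °C, 3227 in that labelled Col-0 4 °C and 3912 in that labelled Col-0 20 °C. It stayed within 2-fold in each comparison, with 1.62-fold (1.55 to 1.69) between the libraries labelled sme1-1 as the widest gap, the one labelled 4 °C being lower. *psbD* and ATCG00280 (*psbC*), neighbours that encode the D2 protein and an inner antenna protein, were highest in the library labelled Col-0 4 °C. *psbD* had 168 RPKM in the library labelled sme1-1 4 °C, 134 in that labelled sme1-1 20 °C, 219 in that labelled Col-0 4 °C and 141 in that labelled Col-0 20 °C. *psbC* had 209 RPKM under the label sme1-1 4 °C, 255 under sme1-1 20 °C, 425 under Col-0 4 °C and 265 under Col-0 20 °C, and was 2.03-fold lower (1.99 to 2.07) under the label sme1-1 4 °C than under the label Col-0 4 °C. Between the libraries labelled sme1-1, with 4 °C over 20 °C, the log2 ratio was 0.33 for *psbD* and -0.29 for *psbC*.

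A small photosystem II subunit held the widest difference among the 64 genes that passed the filter. ATCG00220 (*psbM*) had 841 reads in the library labelled sme1-1 4 °C, 134 in that labelled sme1-1 20 °C, 359 in that labelled Col-0 4 °C and 183 in that labelled Col-0 20 °C. It was 6.03-fold higher (5.02 to 7.29) under the label sme1-1 4 °C than under the label sme1-1 20 °C, and 2.36-fold higher (2.08 to 2.68) than under the label Col-0 4 °C. Its counted length was 408 bases against 105 in RefSeq, and reads covered 26% of it in each library. Below the filter, *psbJ* had a wider ratio from few reads, 61 under the label sme1-1 4 °C and 9 under the label sme1-1 20 °C, 6.51-fold higher (3.22 to 14.9). *psbK* had 516 reads under the label sme1-1 4 °C, 1188 under sme1-1 20 °C, 796 under Col-0 4 °C and 1182 under Col-0 20 °C, and was 2.40-fold lower (2.16 to 2.66) under the label sme1-1 4 °C than under the label sme1-1 20 °C. Its neighbour ATCG00080 (*psbI*) was 2.19-fold lower (1.83 to 2.64) under the label sme1-1 4 °C than under the label Col-0 4 °C, with 173 and 382 reads. ATCG00300 (*psbZ*) was 2.04-fold higher (1.65 to 2.53) under the label sme1-1 4 °C than under the label sme1-1 20 °C, from 276 and 130 reads. *psbN*, an assembly gene, was 2.63-fold higher (1.71 to 4.14) in the same pair, from 82 and 30 reads that may include antisense RNA.

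The cytochrome b6f complex passes electrons from photosystem II towards photosystem I. *petD*, the gene of its subunit IV, had 979 reads in the library labelled sme1-1 4 °C, 361 in that labelled sme1-1 20 °C, 412 in that labelled Col-0 4 °C and 490 in that labelled Col-0 20 °C. The library labelled sme1-1 4 °C stood above the other 3, which lay close together. *petD* was 2.61-fold higher (2.31 to 2.95) there than under the label sme1-1 20 °C and 2.39-fold higher (2.13 to 2.69) than under the label Col-0 4 °C. *petB*, the cytochrome b6 gene next to it, had 486 reads under the label sme1-1 4 °C, 287 under sme1-1 20 °C, 318 under Col-0 4 °C and 355 under Col-0 20 °C, with a log2 ratio of 0.70 for sme1-1 4 °C over sme1-1 20 °C and 0.62 for sme1-1 4 °C over Col-0 4 °C. Both genes hold an intron in the plastid genome. *petA*, the cytochrome f gene, ranged from 21.1 to 28.4 RPKM.

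The ATP synthase genes split into a highly counted pair and a cluster with few reads. *atpB* had 2194 RPKM in the library labelled sme1-1 4 °C, 2309.7 in that labelled sme1-1 20 °C, 3585 in that labelled Col-0 4 °C and 3703 in that labelled Col-0 20 °C. *atpE*, which encodes the epsilon subunit and overlaps it, had 3015 RPKM under the label sme1-1 4 °C, 2748 under sme1-1 20 °C, 4179.9 under Col-0 4 °C and 4149 under Col-0 20 °C. Both libraries labelled sme1-1 lay below both labelled Col-0 for each gene. For *atpB* the library labelled sme1-1 was 1.63-fold lower (1.62 to 1.64) at 4 °C and 1.60-fold lower (1.59 to 1.61) at 20 °C, short of 2-fold, and the ratio kept its direction on the scale of the plastid total. The other genes of the complex were far less counted. *atpI*, a membrane subunit gene, had 25.1 RPKM in the library labelled sme1-1 4 °C, 39.5 in that labelled sme1-1 20 °C, 51.2 in that labelled Col-0 4 °C and 43.5 in that labelled Col-0 20 °C, and was 2.04-fold lower (1.88 to 2.21) under the label sme1-1 4 °C than under the label Col-0 4 °C. Along the cluster *rps2*, *atpI*, *atpH*, *atpF* and *atpA* the log2 ratios of that comparison were -0.74, -1.03, 0.04, -0.99 and -0.84.

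The NDH complex, which feeds electrons back from photosystem I in cyclic flow, had most of its reads in *ndhK* and *ndhJ*. *ndhK*, the highest per length, had 567 RPKM in the library labelled sme1-1 4 °C, 480.1 in that labelled sme1-1 20 °C, 784 in that labelled Col-0 4 °C and 685 in that labelled Col-0 20 °C. The library labelled sme1-1 was 1.38-fold lower (1.36 to 1.41) at 4 °C and 1.43-fold lower (1.40 to 1.46) at 20 °C. ATCG01050 (*ndhD*) had 910 reads under the label sme1-1 4 °C, 1050 under sme1-1 20 °C, 973 under Col-0 4 °C and 501 under Col-0 20 °C. The library labelled Col-0 20 °C alone was low, and *ndhD* was the one gene at least 2-fold higher under the label sme1-1 at 20 °C, by 2.08-fold (1.87 to 2.32). *ndhI* had 575 reads under the label sme1-1 4 °C and 263 under the label sme1-1 20 °C, 2.1-fold higher (1.81 to 2.44). All 10 measured NDH genes lay above 0 for 4 °C over 20 °C between the libraries labelled Col-0, with a median of 0.37 and none at 2-fold. In that comparison 52 of all 64 plastid genes and 7510 of all 17218 genes lay above 0. With the plastid total less its 3 most counted genes as the scale, the median of the NDH genes was -0.00.

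*rbcL*, the plastid gene of the Rubisco large subunit, had 850 reads in the library labelled sme1-1 4 °C, 1883 in that labelled sme1-1 20 °C, 1436 in that labelled Col-0 4 °C and 1977 in that labelled Col-0 20 °C. Each library labelled 4 °C was below its counterpart at 20 °C. The fold was 2.30 lower (2.12 to 2.50) between the libraries labelled sme1-1 and 1.46 lower (1.36 to 1.56) between those labelled Col-0. Of the nuclear small subunit genes, RBCS1A, the one with more reads, had 27229 CPM under the label sme1-1 4 °C, 28618 under sme1-1 20 °C, 34005 under Col-0 4 °C and 31947 under Col-0 20 °C, a log2 ratio of -0.32 at 4 °C and -0.16 at 20 °C for sme1-1 over Col-0. RBCS2B differed more between the genotype labels, with 1229 CPM under the label sme1-1 4 °C, 1337 under the label sme1-1 20 °C, 3892 under the label Col-0 4 °C and 3873 under the label Col-0 20 °C.

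Of the 12 genes at least 2-fold higher under the label sme1-1 4 °C than under the label sme1-1 20 °C, several encode proteins of the plastid ribosome, of which 3 are described here. *rpl36*, a short gene of the large subunit, had 1491 reads in the library labelled sme1-1 4 °C, 450 in that labelled sme1-1 20 °C, 1131 in that labelled Col-0 4 °C and 681 in that labelled Col-0 20 °C. Both libraries labelled 4 °C were above both labelled 20 °C. It was 3.18-fold higher (2.86 to 3.55) between the libraries labelled sme1-1 and 1.57-fold (1.43 to 1.73) between those labelled Col-0. *rps3* had 1768 RPKM in the library labelled sme1-1 4 °C, 828 in that labelled sme1-1 20 °C, 1503 in that labelled Col-0 4 °C and 929 in that labelled Col-0 20 °C, 2.13-fold (2.1 to 2.17) between the libraries labelled sme1-1 and 1.62-fold (1.59 to 1.64) between those labelled Col-0. In the same direction between the libraries labelled sme1-1, *rpl22* was 2.21-fold higher (2.15 to 2.27). On the scale of the plastid total, *rpl36* remained at least 2-fold higher, with a log2 ratio of 1.42, while *rps3* had 0.85 and *rpl22* 0.90.

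The 7 genes reported here of the cluster known to run from *rpl23* to *rpoA* lay above 0 for 4 °C over 20 °C between the libraries labelled sme1-1, and 4 of them were at least 2-fold higher. Of all 17218 genes, 9010 lay above 0 there and 3.26% were at least 2-fold higher. Within that one cluster the ratios were uneven. In the order *rps19*, *rpl22*, *rps3*, *rpl16*, *rpl14*, *rpl36* and *rpoA*, the log2 ratios were 0.36, 1.14, 1.09, 0.01, 0.84, 1.67 and 1.07. *rpl16*, the gene of highest RPKM in the plastid set, stood lowest among its neighbours, with 3317 RPKM in the library labelled sme1-1 4 °C, 3306 in that labelled sme1-1 20 °C, 4883 in that labelled Col-0 4 °C and 4004 in that labelled Col-0 20 °C. *rps19*, the first of these 7 in the cluster, had 1741 RPKM under the label sme1-1 4 °C, 1357 under sme1-1 20 °C, 2474 under Col-0 4 °C and 1610.1 under Col-0 20 °C. Between the libraries labelled Col-0 the 7 log2 ratios lay closer together, from 0.29 to 0.69. On the scale of the plastid total *rpl16* lay below 0 between the libraries labelled sme1-1, at -0.24. Of the 4 genes at least 2-fold higher, only *rpl36* stayed so on that scale, at 1.42, and *rpoA* had 0.83.

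**Figure D3:**
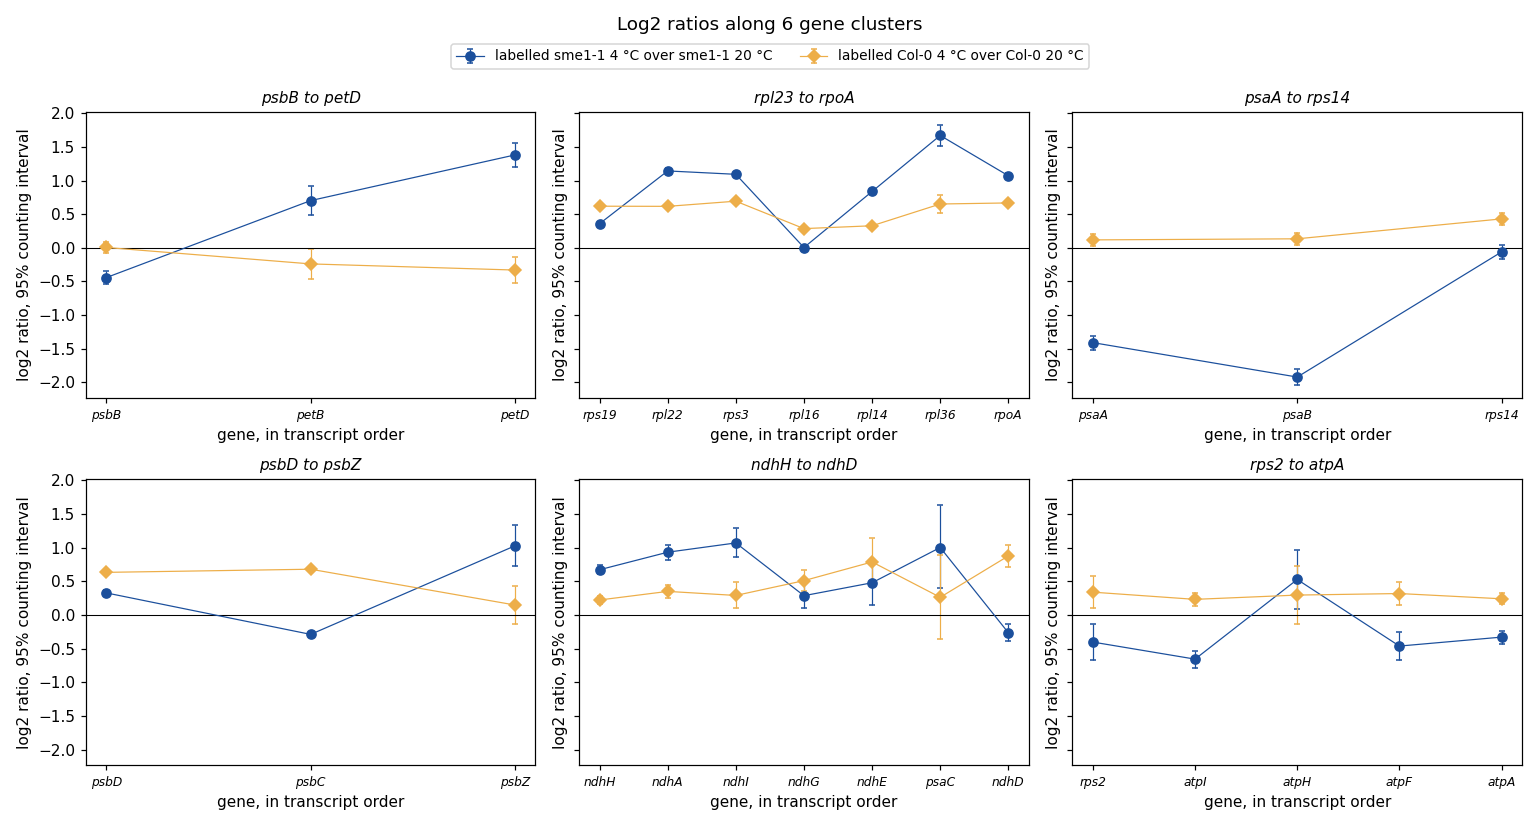
Log2 ratio of library-scaled counts along 6 gene clusters, without every gene of each, for 4 °C over 20 °C, from the libraries labelled sme1-1 (blue circles) and those labelled Col-0 (yellow diamonds), with bars for the exact 95% counting interval. From *psbB* to *petD* the blue points run from -0.44 to 1.38, and *psaA* and *psaB* lie at -1.41 and -1.92 beside *rps14* at -0.06.

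Other clusters were uneven in the same pair of libraries. *rps14*, which follows *psaA* and *psaB*, had a log2 ratio of -0.06 for 4 °C over 20 °C between the libraries labelled sme1-1, against -1.41 and -1.92 for the genes before it. In the *psbB* cluster the log2 ratio was -0.44 for *psbB*, which encodes an inner antenna protein of photosystem II, 0.70 for *petB* and 1.38 for *petD*. Between the libraries labelled Col-0 the same genes had 0.01, -0.24 and -0.33. Scaling between libraries shifts all genes of a pair by the same amount, so the gaps between neighbours do not depend on it.

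A few ribosomal genes were lower. ATCG00050 (*rps16*), of the small subunit and holding an intron, had 36 reads in the library labelled sme1-1 4 °C, 81 in that labelled sme1-1 20 °C, 110 in that labelled Col-0 4 °C and 67 in that labelled Col-0 20 °C. It was 2.34-fold lower (1.56 to 3.57) under the label sme1-1 4 °C than under the label sme1-1 20 °C, and 3.03-fold lower (2.06 to 4.55) than under the label Col-0 4 °C. ATCG00905, the long *rps12* entry, had 2539 reads in the library labelled sme1-1 4 °C against 6039 in that labelled sme1-1 20 °C, 6630 in that labelled Col-0 4 °C and 7081 in that labelled Col-0 20 °C. The library labelled sme1-1 4 °C was 2.47-fold lower (2.36 to 2.59) than that labelled sme1-1 20 °C, and reads covered 65.8% of the entry there and 81.4% to 86.1% in the other 3. *rpl20* was 2.07-fold lower (1.82 to 2.36) under the label sme1-1 4 °C than under the label Col-0 4 °C, with 355 and 741 reads. *rps15* was 1.59-fold lower (1.45 to 1.75) under the label sme1-1 than under the label Col-0 at 20 °C, with 60.4 and 96.4 RPKM.

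Of the 4 genes of the plastid-encoded RNA polymerase, *rpoA* lies in the ribosomal cluster and the others in a cluster of their own. *rpoA*, the alpha subunit gene, had 21218 reads in the library labelled sme1-1 4 °C, 9698 in that labelled sme1-1 20 °C, 19700 in that labelled Col-0 4 °C and 11731 in that labelled Col-0 20 °C. Both libraries labelled 4 °C were above both labelled 20 °C, by 2.1-fold (2.05 to 2.15) between those labelled sme1-1 and 1.59-fold (1.55 to 1.63) between those labelled Col-0. ATCG00190 (*rpoB*) had 14.9 RPKM under the label sme1-1 4 °C, 10.6 under sme1-1 20 °C, 12.5 under Col-0 4 °C and 11.0 under Col-0 20 °C, and *rpoC1* had 8.16 RPKM under the label sme1-1 4 °C, 5.55 under sme1-1 20 °C, 6.19 under Col-0 4 °C and 5.94 under Col-0 20 °C. *rpoC2* varied least of all 64 genes, by 1.15-fold between its highest and lowest library. No gene of the *rpoB* cluster was 2-fold apart in any comparison.

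Among the remaining proteins, *ccsA*, needed to attach haem to c-type cytochromes, had 138 reads in the library labelled sme1-1 4 °C, 168 in that labelled sme1-1 20 °C, 357 in that labelled Col-0 4 °C and 256 in that labelled Col-0 20 °C. It was 2.57-fold lower (2.1 to 3.15) under the label sme1-1 4 °C than under the label Col-0 4 °C. ATCG00040 (*matK*), the plastid maturase that aids group II intron splicing, came just short, 1.99-fold lower (1.77 to 2.23) in the same pair with 6.15 and 12.2 RPKM. ATCG01130 (*ycf1*) had the highest RPKM of these genes, 141 in the library labelled sme1-1 4 °C, 93.5 in that labelled sme1-1 20 °C, 145 in that labelled Col-0 4 °C and 131 in that labelled Col-0 20 °C. *clpP*, a protease subunit gene, ranged from 84.7 to 132 RPKM.

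**Figure D4:**
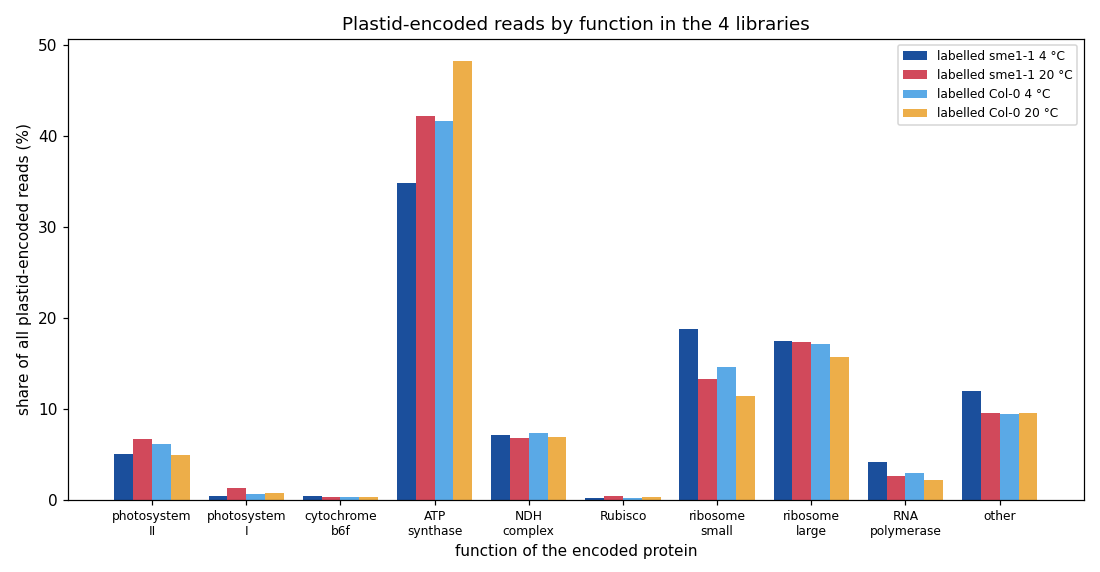
Share of all plastid-encoded reads taken by each function in the 4 libraries, in percent from 0, with 1 bar for each library and no error bars because each label has 1 library. ATP synthase genes held 34.8% under the label sme1-1 4 °C and 48.2% in that labelled Col-0 20 °C, and genes of the small ribosomal subunit 18.7% and 11.4%.

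As shares of the plastid reads, ATP synthase genes took 34.8% in the library labelled sme1-1 4 °C, 42.1% in that labelled sme1-1 20 °C, 41.6% in that labelled Col-0 4 °C and 48.2% in that labelled Col-0 20 °C. Small ribosomal subunit genes took 18.7% under the label sme1-1 4 °C, 13.3% under sme1-1 20 °C, 14.6% under Col-0 4 °C and 11.4% under Col-0 20 °C, and polymerase genes took 4.13% under the label sme1-1 4 °C, 2.55% under sme1-1 20 °C, 2.87% under Col-0 4 °C and 2.19% under Col-0 20 °C. For these groups each library labelled 4 °C thus differed from its counterpart at 20 °C in the same direction, lower for ATP synthase and higher for the others. Scaled to the library total, the summed ratio of 4 °C over 20 °C for small ribosomal subunit genes was 1.68 (1.66 to 1.69) between the libraries labelled sme1-1 and 1.46 (1.44 to 1.47) between those labelled Col-0. That of the polymerase genes was 1.92 (1.88 to 1.96) between the libraries labelled sme1-1 and 1.49 (1.46 to 1.52) between those labelled Col-0. Both sums stayed above 1 under each of the 6 scalings tried, but *rpoA* holds most of the polymerase reads and the medians over genes did not all do so. The median log2 ratio of the polymerase genes between the libraries labelled Col-0 was 0.13, or -0.05 with the plastid total. That of the small subunit genes between the libraries labelled sme1-1 was 0.25, or -0.25 with the plastid total less its 3 most counted genes. Scaled to the library total, the sum of ATP synthase genes was nearly level for 4 °C over 20 °C. It was at 0.981 (0.975 to 0.987) between the libraries labelled sme1-1 and 0.980 (0.975 to 0.985) between those labelled Col-0. The ratio between the libraries labelled Col-0 had a log2 ratio of -0.03, or 0.01 with TMM factors.

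Nuclear genes that serve plastid transcription and RNA were read from 3 lists of 32 genes in all, each of which passed the filter; for 18 of them RefSeq pairs the code with this symbol. On the list of sigma factors and phage-type polymerases, 2 of 8 genes were higher by 2-fold or more and 1 was lower under the label sme1-1 than under the label Col-0, at 20 °C and again at 4 °C. Of all genes, 9.1% were higher and 7.13% lower at 20 °C, and 11.8% and 7.85% at 4 °C. SIG5, a stress-responsive sigma factor of the plastid polymerase, had 93.1 CPM under the label sme1-1 4 °C, 102 under the label sme1-1 20 °C, 286 under the label Col-0 4 °C and 272 under the label Col-0 20 °C. It was 3.07-fold lower (2.96 to 3.17) under the label sme1-1 than under the label Col-0 at 4 °C and 2.66-fold lower (2.57 to 2.75) at 20 °C. RPOTP, the phage-type polymerase of plastids (SCA3 in RefSeq), had 112 CPM under the label sme1-1 4 °C, 135 under the label sme1-1 20 °C, 39.7 under the label Col-0 4 °C and 50.6 under the label Col-0 20 °C. It was 2.82-fold higher (2.67 to 2.97) under the label sme1-1 than under the label Col-0 at 4 °C and 2.66-fold higher (2.54 to 2.80) at 20 °C. RPOTMP, its relative of mitochondria and plastids, had 24.5 CPM under the label sme1-1 4 °C, 21.6 under sme1-1 20 °C, 6.21 under Col-0 4 °C and 7.02 under Col-0 20 °C, 3.95-fold higher (3.47 to 4.5) at 4 °C and 3.08-fold (2.71 to 3.51) at 20 °C. These 3 genes were named because they were at least 2-fold apart, so their separation by genotype label is not a further result. How many of all genes divide the libraries likewise was not counted.

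None of 12 genes for proteins associated with the plastid polymerase was 2-fold apart in any of the 4 comparisons. Of all genes, 0.865% to 11.8% were at least 2-fold higher and 0.871% to 7.85% lower, depending on the comparison. Their median log2 ratio was 0.39 at 20 °C and 0.11 at 4 °C for sme1-1 over Col-0, against 0.03 and 0.09 for all genes. PAP8 came nearest, 1.98-fold higher (1.90 to 2.06) under the label sme1-1 than under the label Col-0 at 20 °C, and FSD3 was furthest at 4 °C with a log2 ratio of 0.74. For 4 °C over 20 °C between the libraries labelled sme1-1, 11 of the 12 lay below 0, with PAP5 at -0.83 and TRXZ at -0.77. Of all 17218 genes, 8208 lay below 0 there. Of 12 genes for plastid RNA binding and turnover, CP29A, an RNA-binding protein known in the cold, was 2.33-fold higher (2.31 to 2.36) under the label sme1-1 than under the label Col-0 at 20 °C, with 2751 and 1179 CPM, and its log2 ratio at 4 °C was 0.59. CP29A was the only gene of these 12 at least 2-fold higher at 20 °C, where 9.1% of all genes were higher. The ribonuclease genes RNJ and RNE had log2 ratios of 0.82 and 0.64 at 20 °C and 0.26 and 0.79 at 4 °C. No gene of the 3 lists was 2-fold apart between 4 °C and 20 °C under either genotype label. Few of all genes were: 0.865% higher and 0.871% lower under the label Col-0, and 3.26% and 2.56% under the label sme1-1.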

How the data were processed

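RNA sequencing libraries of leaves were analysed from 4 deposited gene tables, 1 per label. Per the file headers, counts are of reads that mapped uniquely to a gene, with the library total beside them. The deposited RPKM equals the count per kilobase of the listed length and per M of that total, and the deposited coverage is a percent. The gene length is in bases. Per the submitters' processing notes the genome build is TAIR10. Aligner, counting program and strand setting were not given in the sources used here.

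Deposited counts were divided by the library total (44.6 M to 47.2 M reads) to give CPM, with a missing gene as 0 and a filter of a mean of at least 1 CPM. A count of 0 allows up to 3 reads, or 0.0636 to 0.0672 CPM. Ratios of 2 libraries carry exact (Clopper-Pearson) 95% intervals, which cover counting error only; reads without molecular identifiers are not independent molecules. A gene was called at a fold of at least 2. No test across libraries was run, since each label has 1 library. Ratios and intervals were run on simulated counts with counting error only. That checked the calculation and not the spread between plants or libraries. Alternatives were edgeR 4.0.16 TMM factors and DESeq2 1.42.0 size factors (as scaling only), the plastid total, that total without its 3 most counted genes, the nuclear total, other filters and a fold of 1.5. Sequences and lengths came from RefSeq TAIR10.1. R 4.3.3 and Python 3.11.15 were used, with pandas 2.3.3, scipy 1.17.1, matplotlib 3.10.9 and numpy 2.4.6.

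Members and gene lists were chosen with earlier results of these data known. Named were all genes at least 2-fold apart, the highest per length of each function and of all, *rbcL*, *psbA*, *psbD*, *psbC* and the polymerase genes, the 3 most extreme ratios each way of each comparison, SME1 and SME2, and for nuclear lists the genes 2-fold apart and the 2 furthest from 0. Further members, such as neighbours in a cluster, were named after their values were seen. Some genes that the rule names are not reported here; counts and sums over all genes include them.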

Additional observations from a re-analysis of the deposited data

Results flagged for a closer look

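In 6 genes the ratio of the library labelled sme1-1 to that labelled Col-0 had opposite signs at 4 °C and at 20 °C, with both counting intervals clear of no change and the log2 ratios at least 1 apart. These differences were not tested, since each label has 1 library. How many of all genes meet the same rule was not counted. The log2 ratios at 4 °C and at 20 °C were -1.62 and 0.44 for *psaB* and -0.87 and 0.65 for *psaA*. They were -0.99 and 0.35 for *matK*. In the other direction they were 1.24 and -0.46 for *psbM*, 1.26 and -0.45 for *petD*, and 0.41 and -0.61 for *rpl36*. With the plastid total as the scale, *petD* no longer had opposite signs, with 1.65 at 4 °C and 0.01 at 20 °C, and *psbM* at 20 °C was at -0.00. On that scale *rpl36* had 0.80 at 4 °C and -0.15 at 20 °C, less than 1 apart. Counting intervals were not computed on it.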

How the results depend on the processing

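No paired analysis was possible because each label has 1 library and the labels carry no replicate numbers; for the same reason no replicate could be left out. None of the 30 single differences of 2-fold or more and none of the plastid share ratios changed direction. The median log2 ratio of the 64 genes did: with the plastid total and with that total less its 3 most counted genes it was 0.18 and 0.03 for sme1-1 over Col-0 at 20 °C (-0.27 as reported), 0.18 and -0.04 at 4 °C (-0.21), 0.05 and -0.14 for 4 °C over 20 °C between the libraries labelled Col-0 (0.24), and -0.01 and -0.27 between those labelled sme1-1 (0.23). For the library labelled sme1-1 over that labelled Col-0 at 20 °C, the 1 gene higher became 3 with the plastid total, 3 at 1.5-fold and 0 among genes of equal RefSeq length (an alternative chosen after seeing the data), and the 0 lower became 2 without a filter, 1 with a filter of 100 summed reads and 9 at 1.5-fold. At 4 °C the 2 higher became 1 with equal lengths, and the 8 lower became 2 with the plastid total, 4 with that total less its 3 most counted genes, 20 at 1.5-fold and 4 with equal lengths. For 4 °C over 20 °C between the libraries labelled Col-0, the 0 higher became 1 without a filter and 11 at 1.5-fold, and the 1 lower became 0 with TMM, 0 with DESeq2 factors, 0 with equal lengths, 2 with the reduced plastid total and 2 at 1.5-fold. Between those labelled sme1-1, the 12 higher became 4 with the plastid total, 2 with the reduced one and 19 at 1.5-fold, and the 6 lower became 12 with the reduced plastid total, 9 with the plastid total and 12 at 1.5-fold. Shares of all genes under these alternatives were not computed. The ratio of plastid shares, with TMM, with DESeq2 factors, with the nuclear total and without the 3 most counted genes, was 0.709, 0.708, 0.725 and 0.811 for sme1-1 over Col-0 at 20 °C (0.728 as reported) and 0.708, 0.711, 0.757 and 0.887 at 4 °C (0.761). With TMM, with DESeq2 factors and without those 3 genes it was 1.16, 1.16 and 1.29 for 4 °C over 20 °C between the libraries labelled Col-0 (1.14), and 1.16, 1.16 and 1.41 between those labelled sme1-1 (1.19). Of the 30 single genes at least 2-fold apart, 27 kept this with TMM, 28 with DESeq2 factors, 30 with the nuclear total, 16 with the plastid total and 16 with the reduced plastid total. The cause of these shifts was not tested. Genes of few reads, such as *psaC*, *psbN* and *rps16*, have intervals that reach below 2-fold in at least one comparison. So do genes of more reads whose fold only just passed 2, such as *psbC*, *atpI* and *ndhD*. Without replicates the spread between plants is unknown.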
